A study of Homo sapiens with 15 samples.

Results

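The genes described here encode 9 complement proteins, C3, C1R, C1S, CFB, CFI, SERPING1, CD46, CD55 and CD59. They were taken by name from the 23368 genes of the count table, and all 9 were found. The rule used no values, but the list was chosen with earlier results of these data known. The libraries are of RNA from 3 single-cell clones of breast cancer cells, each carrying an RBM47 cDNA with a FLAG tag that doxycycline switches on through a tetracycline-responsive retroviral vector. WT6 and WT10 cells carry wild type RBM47, an RNA-binding protein, and MUT3 cells carry the truncated mutant I281fs. Each clone was left untreated or given 1, 2.5, 5 or 25 ng/ml doxycycline, with 1 library for each clone and dose and therefore 15 libraries in all. The labels name MDA231, a triple negative breast cancer line, as the source of every clone, whereas the methods of the study derive WT10 and MUT3 cells from its brain metastatic derivative and WT6 cells from CN34-BrM2, a brain metastatic derivative of another line. WT6 cells stood apart in these data. KRT7, an epithelial keratin, had normalized read counts between 41311 and 72760 in WT6 libraries, between 99.3 and 176 in WT10 libraries and between 15 and 25.1 in MUT3 libraries. A difference between WT6 cells and the other clones therefore cannot be told apart from a difference between lines or between single cells, and each genotype rests on 1 or 2 clones.

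Complement is a set of plasma and cell surface proteins that tag and lyse targets. In the classical pathway the serine proteases C1r and C1s, bound to C1q, cleave C4 and C2 to form an enzyme that splits C3. In the alternative pathway factor B joins C3b to form a second C3-cleaving enzyme, and the fragments deposited on the target lead to the membrane attack complex. C1 inhibitor, encoded by SERPING1, stops C1r and C1s. Factor I, with cofactors such as CD46, degrades C3b, CD55 breaks up the C3-cleaving enzymes, and CD59 blocks the membrane attack complex. Hepatocytes make most of the soluble proteins, and epithelial cells make several of them under inflammatory signals.

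A library held between 14955172 and 44771871 reads on genes, and 3 reads, taken as the lowest amount that can be told from 0, corresponded to normalized read counts between 1.19 and 4.09. VIM, a mesenchymal filament gene, lay between 50755 and 104639 in every library, whereas ESR1 did not exceed 12 and the T cell marker CD3E was listed at 0. ALB, the hepatocyte albumin gene, was at 53.0 in untreated WT10 cells and at 42.2 in MUT3 cells at 1 ng/ml and did not exceed 5.97 elsewhere. The 6 hepatocyte markers summed to between 865 and 1694 in WT6, 90.8 and 202 in WT10 and 12.5 and 91.0 in MUT3 libraries, with 2, 3 and 3 of the 6 reaching 10. SERPINA1 alone gave between 788 and 1518 in WT6 cells, and TTR was listed at 0 in all of them. RBM47 itself was at 258 untreated and 10425 at 25 ng/ml in WT6 cells, at 168 and 19877 in WT10 cells and at 73.8 and 22084 in MUT3 cells. Transgene and endogenous gene share this count. Its slope in MUT3 cells, the steepest of the 3 clones, was itself not called (limma, adjusted p = 0.0517), so the test called 0 genes in MUT3 cells although the transgene was induced. In WT6 cells RBM47 did not follow the dose throughout, with 3137, 8094 and 3966 at the doses of 1, 2.5 and 5 ng/ml.

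The promoter of CFB is shown because CFB had the steepest slope with dose among the members in WT6 cells and was the member whose slope differed between the wild type clones and MUT3, and that of C1R because it is the other soluble component that rose in both wild type clones and has an entry in the RefSeq promoter table used here. The lines give the 250 bases before the annotated start in GRCh38.p14, chr6:31945845-31946094 on the plus strand for CFB and chr12:7092446-7092695 on the minus strand for C1R, with motif matches in capitals. The promoters were searched on both strands for TTCNNNGAA (the GAS element of STAT factors), a pair of GAAA repeats with any 2 bases between them (an interferon response element), TTGCNNAA (C/EBP) and the kappa B consensus.
CFB: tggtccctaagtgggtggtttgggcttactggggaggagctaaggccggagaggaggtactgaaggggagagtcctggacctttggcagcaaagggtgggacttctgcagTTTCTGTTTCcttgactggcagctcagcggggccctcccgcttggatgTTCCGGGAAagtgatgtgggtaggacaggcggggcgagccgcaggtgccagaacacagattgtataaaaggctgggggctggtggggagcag
C1R: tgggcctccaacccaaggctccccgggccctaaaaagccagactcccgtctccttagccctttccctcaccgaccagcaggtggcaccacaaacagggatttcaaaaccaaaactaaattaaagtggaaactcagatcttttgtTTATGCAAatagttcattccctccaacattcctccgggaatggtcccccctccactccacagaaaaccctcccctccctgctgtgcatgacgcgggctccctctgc
CFB held an interferon response element match at bases -140 to -131 from the start and a GAS match at -92 to -84, and this C1R window held a C/EBP match at -106 to -99. Over all 35116 promoters of the table, 3.02% held the interferon response element letters, 6.57% the GAS letters, 9.05% the C/EBP letters and 5.21% the kappa B consensus. Of the 6 members with an entry, CD55, CD46 and CFI had no match, a second C1R window and 3 of 4 CD59 windows had GAS or C/EBP matches, and none had a kappa B match. C3, C1S and SERPING1 were matched to no entry. A match is a description of letters and was not tested for binding.

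The soluble components C1S, C3, CFB and C1R rose with dose in both wild type clones, with the larger step between 5 and 25 ng/ml for all but CFB in WT10 cells, and none of the members tested passed the test in MUT3 cells. From 0 to 25 ng/ml C1S was 10-fold higher in WT10 cells, C3 7.71-fold, CFB 3.50-fold and C1R 1.98-fold. In WT6 cells CFB was 9.09-fold higher, C1S 4.15-fold, C3 3.01-fold and C1R 2.03-fold. In MUT3 cells C3 was 3.27-fold higher, C1S 2.85-fold, CFB 1.57-fold and C1R 1.48-fold, so the fold of C3 was no smaller there than in WT6 cells. The membrane regulators CD46, CD55 and CD59 changed by at most 1.47-fold over the same range. These folds are ratios of 1 library to 1 library, and their intervals below cover counting error only.

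Slopes were tested with limma over the 12644 genes with a mean normalized read count of at least 10 in each clone, of which 7 are members. SERPING1 and CFI did not reach this level in every clone. A slope is the log2 change of the normalized read count (plus 1) per doubling of dose + 1. In WT6 cells 6 of the 7 tested members rose (adjusted p under 0.05), against 29.2% of all genes tested with a rising slope. In WT10 cells 6 of 7 rose, against 10.2% of all genes. In MUT3 cells limma called 0 of 7, as did edgeR and DESeq2 on whole reads, against 0% of all genes, and 1 of 7 members and 295 of all genes had an unadjusted p under 0.05. The median slope of the 7 members was 0.25 in WT6, 0.19 in WT10 and 0.08 in MUT3 cells, with medians over all genes of 0.01, 0.00 and 0.00. With 1 library per condition, these p-values measure the scatter of single libraries around the dose line, not the spread between cultures. Epithelial and mesenchymal markers moved with dose in the same wild type libraries. In WT6 cells KRT7, KRT8, KRT18 and KRT19, 4 of the 5 epithelial markers tested, rose and AXL, CD44 and ZEB1, 3 of 4 mesenchymal markers, fell, and in WT10 cells KRT8 and KRT18 rose and AXL fell. KRT8 was at 13843 untreated and 31010 at 25 ng/ml in WT6 cells, at 11288 and 16573 in WT10 cells and at 8159 and 9624 in MUT3 cells. The 6 epithelial markers summed to between 67190 and 132186 in WT6, 20434 and 33864 in WT10 and 21333 and 23919 in MUT3 libraries. SERPINA1, the only hepatocyte marker tested, also rose in both wild type clones. It went from 788 to 1518 in WT6 and from 55.2 to 199 in WT10 cells. The other hepatocyte markers were all lower at 25 ng/ml than untreated in WT10 cells, with ALB at 2.07 against 53.0. In WT6 cells APOB went from 70.1 to 164, and the rest did not exceed 8.17. The part of these changes in the values of the complement genes was not tested. In bulk RNA a change in the number of expressing cells and a change in RNA per cell cannot be told apart.

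**Figure D1:**
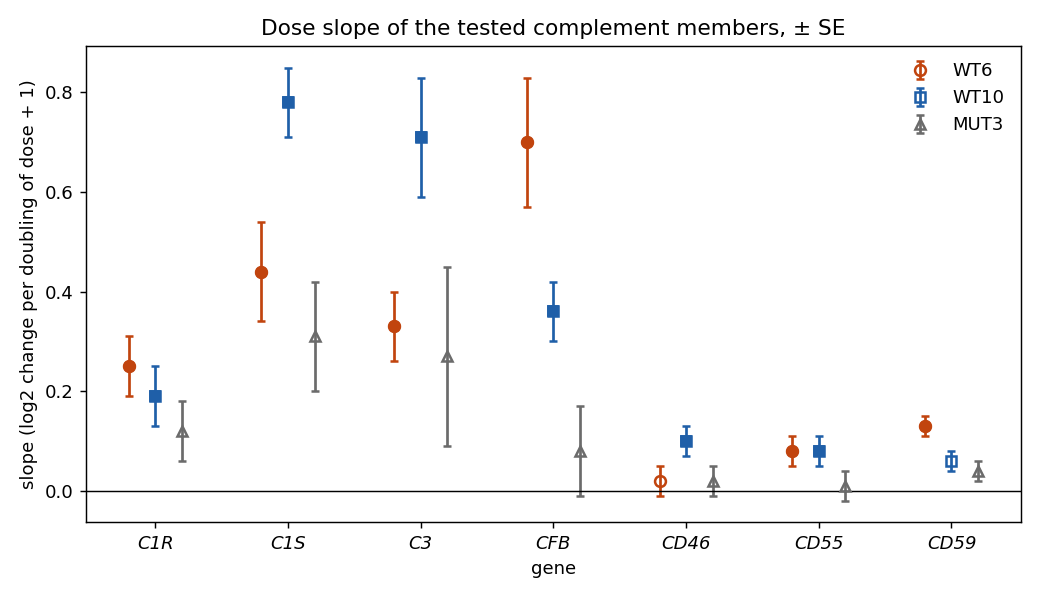
Dose slopes of the 7 tested members (log2 change per doubling of dose + 1) in WT6, WT10 and MUT3 cells; points are limma estimates, bars are standard errors, and filled points have an adjusted p under 0.05. The steepest slopes belong to C1S and C3 in WT10 cells (0.78 and 0.71) and to CFB in WT6 cells (0.70), whereas the membrane regulators lie between 0.01 and 0.13.

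C1S encodes the C1 subunit that cleaves C4 and C2. In WT10 cells its normalized read count was 30.3 untreated and 45.3, 42.9, 72.3 and 304 at 1, 2.5, 5 and 25 ng/ml. In WT6 cells it was 18.6, 28.8, 18.8, 28.6 and 77.2 in the same order. In MUT3 cells it was 12.5, 15.5, 15.8, 18.4 and 35.6. The 25 ng/ml library was the highest of every clone, that of MUT3 included, and it stood well above the other 4 doses in the wild type clones. The ratio of 25 to 0 ng/ml was 10 in WT10 cells (95% interval 6.79 to 15.3), 4.15 in WT6 cells (2.39 to 7.56) and 2.85 in MUT3 cells (1.38 to 6.46), the last from 10 and 34 reads. The slope was 0.78 ± 0.07 (SE) in WT10 cells (limma, adjusted p = 1.01e-05), 0.44 ± 0.10 in WT6 cells (adjusted p = 0.0014) and 0.31 ± 0.11 in MUT3 cells (adjusted p = 1, unadjusted p = 0.0154). In hg19 C1S lies at chr12:7096351-7178336 on the plus strand, where annotated genes on both strands, among them LPCAT3, overlap its span. Reads were assigned by strand, the default of HTSeq, but whether the libraries keep the strand is not given in the sources used here, so reads of such partners may not be separable.

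C1R, the protease that activates C1s and lies beside it at chr12:7187513-7245203 on the minus strand, moved less. In WT6 cells it was at 50.4, 49.4, 41.8, 59.9 and 102 over the rising doses, and in WT10 cells at 45.4, 58.8, 54.9, 59.2 and 90.1. In MUT3 cells it was at 47.5, 46.6, 65.2, 58.8 and 70.2. The untreated levels of the 3 clones lay between 45.4 and 50.4, and both wild type clones exceeded every MUT3 library at 25 ng/ml. The slope was 0.25 ± 0.06 in WT6 cells (limma, adjusted p = 0.00266), 0.19 ± 0.06 in WT10 cells (adjusted p = 0.0331) and 0.12 ± 0.06 in MUT3 cells (adjusted p = 1). The annotation puts C1RL on the same strand over part of this span.

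C3 encodes the protein on which all complement pathways converge, at chr19:6677715-6730573 on the minus strand. In WT6 cells its normalized read count was 597, 717, 585, 616 and 1799 over the rising doses. In WT10 cells it was 43.3, 57.9, 50.9, 89.8 and 334, and in MUT3 cells 12.5, 23.3, 35.6, 24.8 and 40.9. The ranges of the 3 clones did not overlap, and WT6 cells without doxycycline held more C3 than WT10 cells at the highest dose. Between 0 and 5 ng/ml C3 in WT6 cells was level, with a ratio of 1.03 (0.908 to 1.17), and the rise of 2.92-fold (2.63 to 3.25) came between 5 and 25 ng/ml. In WT10 cells the ratio was 2.08 (1.48 to 2.98) up to 5 ng/ml and 3.72 (3.12 to 4.42) beyond it. C3 in MUT3 cells was 3.27-fold higher at 25 than at 0 ng/ml (1.60 to 7.34), from 10 and 39 reads, and did not follow the order of the doses in between. The slope was 0.71 ± 0.12 in WT10 cells (limma, adjusted p = 0.00087), 0.33 ± 0.07 in WT6 cells (adjusted p = 0.00103) and 0.27 ± 0.18 in MUT3 cells (adjusted p = 1). In the 2 libraries highest in ALB C3 was at 43.3 and 23.3, the lowest value of WT10 and the second lowest of MUT3 cells. The part of hepatocyte RNA in these values was not tested.

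CFB encodes factor B, the protease of the alternative pathway, in the major histocompatibility complex at chr6:31913427-31919863 on the plus strand. In WT10 cells its normalized read count was 133, 207, 211, 262 and 465 over the rising doses, so that it lay higher at every dose than untreated. In WT6 cells it was 12.1, 29.9, 10.2, 23.2 and 110, low and irregular up to 5 ng/ml and highest at 25 ng/ml. In MUT3 cells it was 76.3, 115, 97.9, 76.3 and 119, with no order by dose. In WT10 cells CFB was 1.97-fold higher at 5 than at 0 ng/ml (1.62 to 2.41) and a further 1.78-fold at 25 ng/ml (1.57 to 2.01), while WT6 cells rose 4.73-fold (2.79 to 8.49) between 5 and 25 ng/ml. In MUT3 cells the ratio of 25 to 0 ng/ml was 1.57 (1.14 to 2.17) and that of 5 to 0 ng/ml 1.00 (0.710 to 1.42). That of 25 to 5 ng/ml was 1.57 (1.17 to 2.10). The slope was 0.70 ± 0.13 in WT6 cells (limma, adjusted p = 0.000371), 0.36 ± 0.06 in WT10 cells (adjusted p = 0.00155) and 0.08 ± 0.09 in MUT3 cells (adjusted p = 1). C2, which encodes the classical pathway counterpart of factor B and overlaps CFB on the same strand in the annotation, was at 105 untreated and 58.0 at 25 ng/ml in WT10 cells, and at 30.7 and 19.9 in WT6 cells. It was named after its values were seen, and its slopes of -0.16 (limma, adjusted p = 0.0612) and -0.17 (adjusted p = 0.0823) did not pass the test.

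**Figure D2:**
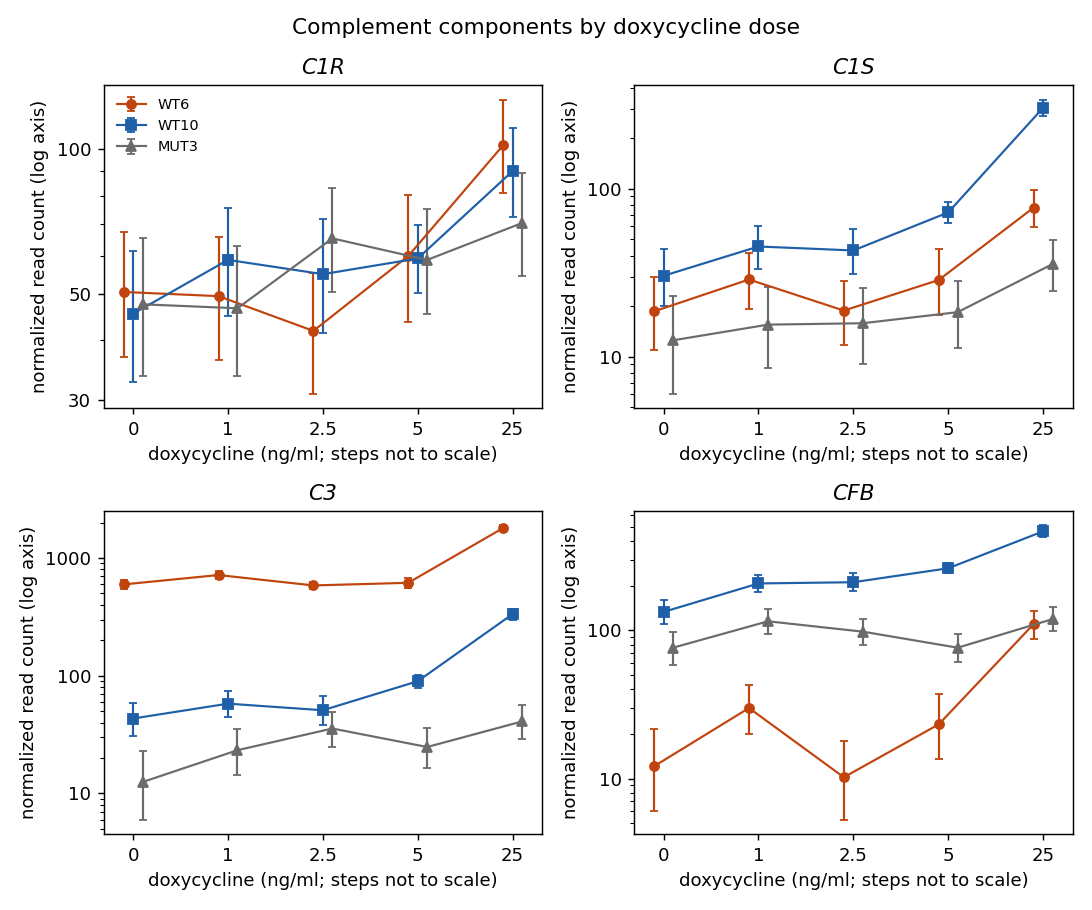
Normalized read counts (log axis) of C1R, C1S, C3 and CFB by doxycycline dose in ng/ml, 1 library per point, for WT6, WT10 and MUT3 cells; bars are exact Poisson 95% intervals of the reads. In both wild type clones the 25 ng/ml library is the highest for every gene, with C1S at 304 in WT10 and CFB at 110 in WT6 cells, and the C3 values of the 3 clones do not overlap.

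**Figure D3:**
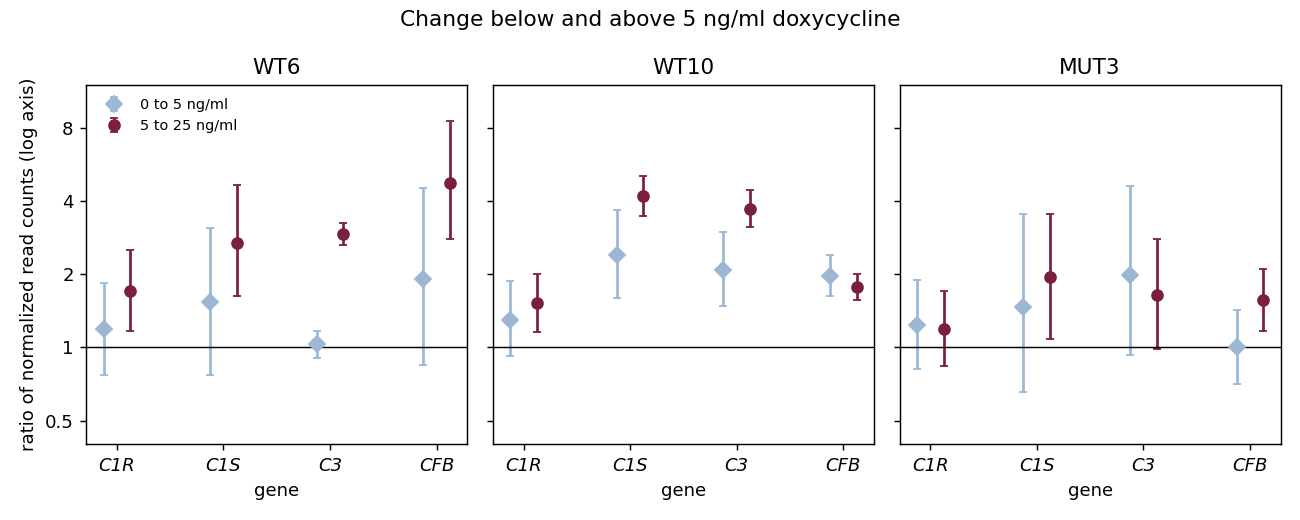
Ratios of normalized read counts (log axis) from 0 to 5 and from 5 to 25 ng/ml doxycycline for the 4 soluble components in each clone; bars are exact 95% intervals of counting error. Above 5 ng/ml the intervals of all 4 genes lie above 1 in both wild type clones. Below it this holds for C1S, C3 and CFB in WT10 cells and for none in WT6 cells. In MUT3 cells the intervals of C1S (1.08 to 3.55) and CFB (1.17 to 2.10) lie above 1 above 5 ng/ml, and none does below it.

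CFI, which encodes factor I (chr4:110652164-110723306, minus strand), was barely detected. It was listed at 0 in all WT6 and MUT3 libraries and gave 1 read in each WT10 library but that at 25 ng/ml, which had none. No library reached 3 reads, so a change with dose could not be read at this depth. Without a filter the WT10 slope of CFI was called (-0.25, limma, adjusted p = 0.0401), but it rests on at most 1 read per library. SERPING1 (chr11:57364860-57386644, plus strand) differed between the clones. In MUT3 cells its normalized read count was 82.5, 98.8, 107, 88.2 and 115 over the rising doses, and in WT10 cells 27.0, 34.7, 33.9, 33.0 and 8.29. WT6 libraries held 2 reads in all, both at 2.5 ng/ml. Summed over the 5 libraries, SERPING1 was 3.42-fold higher in MUT3 than in WT10 cells (2.88 to 4.07), and the ratio of MUT3 to WT6 cells was 227, with a wide interval (62.4 to 1876). In WT10 cells SERPING1 was the one member that was lower at 25 than at 0 ng/ml with any depth behind it, with a ratio of 0.306 (0.119 to 0.701) from 25 and 8 reads, while C1R and C1S were at their highest in that library. When the filter asked only for a mean of 10 over all libraries, its WT10 slope was -0.28 ± 0.12 (limma, adjusted p = 0.116) and did not pass the test, whereas its fitted untreated level was lower in WT10 than in MUT3 cells by 1.21 ± 0.32 on the log2 scale (adjusted p = 0.00915).

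The membrane regulators were the most abundant members and moved little. CD59 (chr11:33724556-33758025, minus strand) was at 8033, 8478, 8559, 11078 and 11794 in WT6 cells over the rising doses. It was at 9613, 10314, 10175, 10584 and 11674 in WT10 cells and at 12514, 13567, 13700, 13452 and 14363 in MUT3 cells. Each MUT3 library exceeded every library of the wild type clones, and in WT6 cells the step lay between 2.5 and 5 ng/ml. The slope was 0.13 ± 0.02 in WT6 cells (limma, adjusted p = 0.000527), 0.06 ± 0.02 in WT10 cells (adjusted p = 0.123) and 0.04 ± 0.02 in MUT3 cells (adjusted p = 1).

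CD55 (chr1:207494864-207560149, plus strand) was at 4844, 4317, 5249, 5720 and 5883 in WT6 cells, at 2557, 2596, 2674, 2827 and 3263 in WT10 cells and at 1468, 1498, 1555, 1573 and 1527 in MUT3 cells. The ranges of the 3 clones did not overlap, and the span within MUT3 cells was the narrowest. The slope was 0.08 ± 0.03 in WT6 cells (limma, adjusted p = 0.0129) and likewise 0.08 ± 0.03 in WT10 cells (adjusted p = 0.0395), against 0.01 ± 0.03 in MUT3 cells (adjusted p = 1). The CD55 call in WT10 cells lay close to the threshold. It held in 5 of the 15 fits that left out 1 library and was lost when any WT10 or MUT3 library was left out (limma, adjusted p between 0.0523 and 0.602). CD46 (chr1:207925382-207968858, plus strand) was at 3462, 3753, 4313, 3916 and 3783 in WT6 cells, at 2236, 2347, 2585, 2933 and 3031 in WT10 cells and at 1887, 2111, 2189, 2145 and 2059 in MUT3 cells. It climbed at each dose in WT10 cells (slope 0.10 ± 0.03, limma, adjusted p = 0.0212) and peaked at 2.5 ng/ml in both other clones (slopes 0.02 ± 0.03 in each, adjusted p = 0.552 in WT6 and 1 in MUT3 cells).

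**Figure D4:**
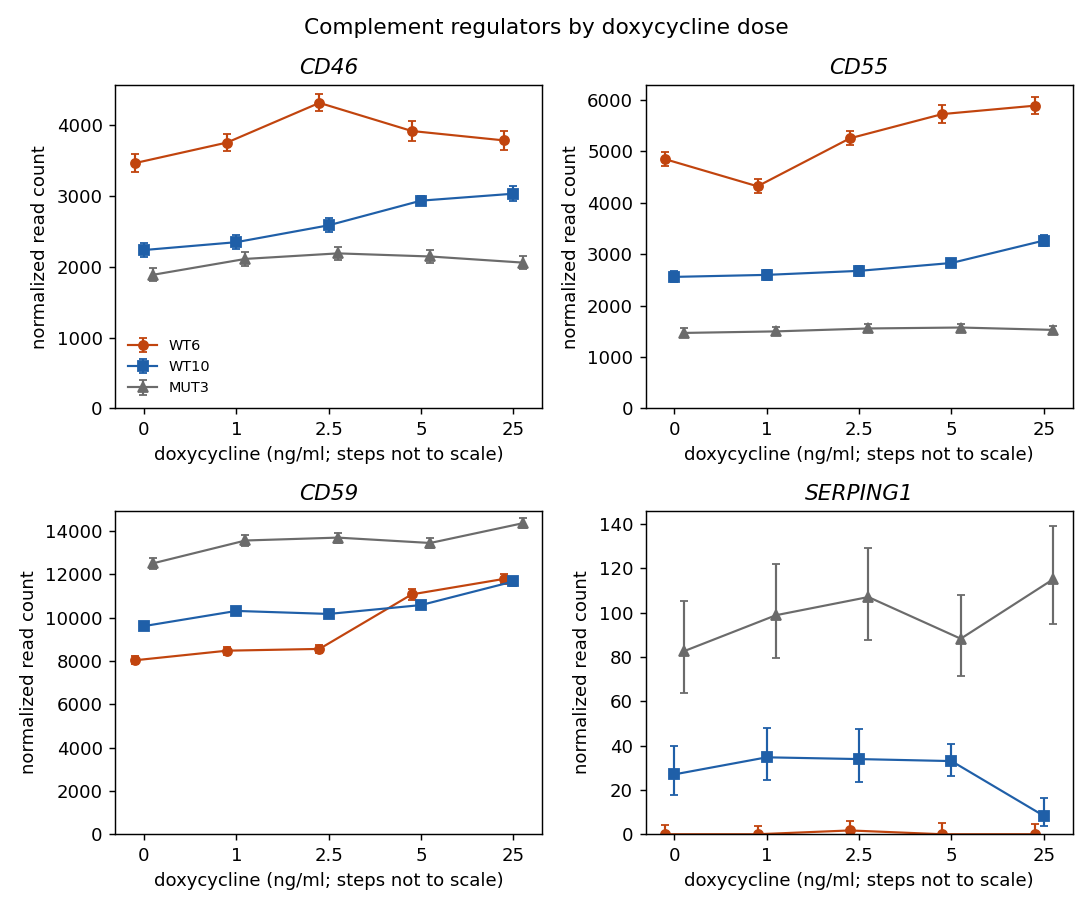
Normalized read counts of CD46, CD55, CD59 and SERPING1 by doxycycline dose in ng/ml, 1 library per point, for WT6, WT10 and MUT3 cells; bars are exact Poisson 95% intervals of the reads. The clones keep their order at every dose for CD46, CD55 and SERPING1, MUT3 lies above both wild type clones for CD59, and SERPING1 in WT10 cells drops to 8.29 at 25 ng/ml.

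Whether wild type and mutant RBM47 differed in their dose response was tested on the slopes themselves. The wild type slope, averaged over both clones, exceeded that of MUT3 cells for CFB, by 0.45 ± 0.11 (limma, adjusted p = 0.0121), and for no other member, so that 1 of 7 was called against 24.6% of all genes tested. The difference was 0.30 ± 0.13 for C1S (adjusted p = 0.1) and 0.25 ± 0.19 for C3 (adjusted p = 0.353), so the absence of a call in MUT3 cells alone does not set these genes apart. The CFB call depended on several choices. It was lost with doses coded by rank (0.49, limma, adjusted p = 0.0509), without precision weights (0.40, adjusted p = 0.0712) and with log2 RBM47 in place of dose (0.24, adjusted p = 0.365). Without the 25 ng/ml library of WT6 the difference was 0.17 (adjusted p = 0.398), without that of WT10 it was 0.44 (adjusted p = 0.0542), and without that of MUT3 0.54 (adjusted p = 0.178).

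WT10 and MUT3 cells come from the same line by the study's methods. Between their slopes limma called 0 of 7 members, as did edgeR and DESeq2, against 5.62% of all genes tested, and 2 of 7 had an unadjusted p under 0.05. The nearest was C1S, with a difference of 0.46 ± 0.13 (adjusted p = 0.0553, and between 0.0217 and 0.916 over the other settings and libraries left out). The difference was 0.43 ± 0.21 for C3 (adjusted p = 0.25) and 0.28 ± 0.11 for CFB (adjusted p = 0.141). Between WT6 and WT10 cells 0 of 7 slopes differed by limma, edgeR or DESeq2, against 14.4% of all genes, with 4 of 7 at an unadjusted p under 0.05. The WT6 slope less the WT10 slope was -0.37 ± 0.13 for C3 and -0.33 ± 0.12 for C1S (adjusted p = 0.0712 and 0.0675) and 0.34 ± 0.14 for CFB (adjusted p = 0.108).

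The calls among the members were fewer without the 25 ng/ml libraries. Without them limma called 1 of 7 slopes in WT6 cells, that of CD59, against 37.2% of all genes, and 0 in WT10 cells, where 17 of all genes (0.135%) were called and 2326 had an unadjusted p under 0.05, and the slope of C3 in WT6 cells was -0.01. Leaving out the 25 ng/ml library of WT6 alone gave 1 call in WT6 cells, against 36.7% of all genes, and leaving out that of WT10 alone gave 0 in WT10 cells, against 0.0475%, with 1924 genes at an unadjusted p under 0.05. When the log2 RBM47 count of each library took the place of the dose, 0 of 7 members were called in either wild type clone, against 0.0158% of all genes in WT6 and 0.704% in WT10 cells, with 2728 and 2245 genes at an unadjusted p under 0.05. Without the 2 libraries highest in ALB, 6 of 7 members were called in WT6 cells, against 54.5% of all genes. In WT10 cells 3 of 7 were called, against 12.9% of all genes. There C1R, CD46 and CD55 kept slopes of 0.19, 0.10 and 0.09 but no longer passed. Without the untreated WT10 library alone, WT10 cells also had 3 calls, against 16.3% of all genes.

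In their fitted untreated levels WT6 cells exceeded MUT3 cells in C3 by 4.74 ± 0.55 on the log2 scale (26.8-fold; limma, adjusted p = 2.63e-06), in CD55 by 1.62 ± 0.09 (adjusted p = 1.21e-09) and in CD46 by 0.88 ± 0.10 (adjusted p = 2.9e-06). They were lower in CFB, by -3.15 ± 0.47 (adjusted p = 3.28e-05), and in CD59, by -0.70 ± 0.09 (adjusted p = 6.58e-06). The 5 calls among 7 members stand against 61.7% of all genes tested, a share near that of the members. Against WT10 cells the same 5 genes were called in WT6 cells in the same directions, against 59.6% of all genes, with C3 at 3.99 ± 0.42 (15.9-fold) and CFB at -3.88 ± 0.45. These comparisons share the WT6 libraries. C1R and C1S did not pass in either.

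WT10 and MUT3 cells were closer. CD55 was higher in WT10 cells by 0.73 ± 0.09 (limma, adjusted p = 5.38e-05) and CD59 lower by -0.41 ± 0.09 (adjusted p = 0.00315), so that 2 of 7 members were called against 28.2% of all genes. The difference was also 0.73 for CFB, with an error of 0.30 (adjusted p = 0.0811), 0.84 ± 0.41 for C1S (adjusted p = 0.137) and 0.75 ± 0.64 for C3 (adjusted p = 0.411), none of which passed.

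Normalized read counts were divided by exon length in kilobases to set the genes beside one another, as a mean ± SD over the 5 doses of a clone, which are not replicates. In WT6 cells CD59 had 908 ± 163 per kilobase, CD55 507 ± 62.5, CD46 248 ± 20.0 and C3 74.5 ± 45.4, and C1R, CFB and C1S had 12.9 ± 5.12, 6.96 ± 7.79 and 4.15 ± 2.95. C3 was thus the leading soluble component in WT6 cells. In WT10 cells CFB led the soluble components with 48.2 ± 23.7 per kilobase. C1R, C1S and C3 had 13.1 ± 3.59, 11.9 ± 13.9 and 9.94 ± 10.7 there, and each SD includes the rise with dose. In untreated WT10 cells C1R stood above C1S and C3 (9.68 against 3.65 and 3.74 per kilobase). At the highest dose C1R stood below both (19.2 against 36.6 and 28.8). In MUT3 cells CFB had 18.3 ± 3.88, SERPING1 13.6 ± 1.84, C1R 12.3 ± 2.23, and C3 and C1S 2.37 ± 0.959 and 2.36 ± 1.11 per kilobase. CD59 led in WT10 and MUT3 cells with 992 ± 71.9 and 1281 ± 62.9. By the length of the longest transcript instead, CD55 stood above CD59 in WT6 cells (1376 against 1241 per kilobase), and in MUT3 cells SERPING1 and C1R (34.5 and 27.3) stood above CFB (23.4).

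After each clone's mean was subtracted, C3 and C1S had a Pearson correlation of 0.95 over the 15 libraries, C1R and C1S one of 0.87, and C1R and CFB one of 0.86. CD46 was least like the soluble components, with 0.59 to C3, 0.53 to C1S, 0.32 to C1R and 0.26 to CFB. These values are descriptions, and the 25 ng/ml libraries, which the genes share, weigh most in them. Of the other 12643 tested genes the nearest in pattern to C3 were TOR1B (0.968) and ICAM1, a leukocyte adhesion molecule (0.958), and the nearest to C1S were MFI2 (0.985) and ZC3H12A, an RNase that degrades cytokine mRNAs (0.970). C1R was nearest to CALCOCO2 (0.934) and EPOR (0.930), and CFB to GPR108 (0.933), which overlaps C3 in the annotation, and CACNA2D4 (0.928). Among the membrane regulators CD46 was nearest to TAX1BP1 (0.972) and YME1L1 (0.961), CD55 to ARMCX3 (0.978) and DNAJB9 (0.966), and CD59 to IL32 (0.985) and SYF2 (0.975).

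Most other genes of the pathway gave few or no reads in these cells. Of 52 further complement gene symbols 51 were in the table, and the missing C5AR2 is another name of GPR77, which was found. Of these 51, 31 stayed under 10 in every library, 11 of them at 0, and 14 were tested. C4A, whose product is the substrate of C1s, was listed at 0 in all libraries, although reads of this gene and its near-identical copy may have been discarded in counting. In WT6 cells 5 of 14 rose and 1 fell, in WT10 cells 2 rose and 2 fell, and in MUT3 cells limma called 0, with 0 at an unadjusted p under 0.05. Of all genes tested 29.2% rose and 28.3% fell in WT6 cells, 10.2% rose and 9.83% fell in WT10 cells and 0% were called in MUT3 cells. Their median slopes were 0.08, -0.01 and -0.02.

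C1RL, a protease gene related to C1R and next to it on chromosome 12, rose in both wild type clones. It was at 104, 105, 98.9, 157 and 308 in WT6 cells, at 37.9, 46.3, 40.9, 48.1 and 86.0 in WT10 cells and at 48.8, 44.4, 33.6, 46.9 and 32.5 in MUT3 cells. The highest value of each wild type clone was at 25 ng/ml, which was the lowest library of MUT3. Its slopes were 0.39 ± 0.05 in WT6 cells (limma, adjusted p = 4.8e-05) and 0.25 ± 0.08 in WT10 cells (adjusted p = 0.0313), and the mean wild type slope exceeded that of MUT3 by 0.42 ± 0.10 (adjusted p = 0.00852). Without 25 ng/ml its slopes were 0.20 (limma, adjusted p = 0.13) and 0.10 (adjusted p = 0.762), and the difference from MUT3 was lost without the 25 ng/ml library of MUT3 (0.39, adjusted p = 0.242), that of WT10 (0.35, adjusted p = 0.0865) or the untreated MUT3 library (0.40, adjusted p = 0.0596).

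CSMD1, a membrane inhibitor of complement, fell in both wild type clones, with slopes of -0.15 ± 0.05 in WT6 cells (limma, adjusted p = 0.0217) and -0.18 ± 0.06 in WT10 cells (adjusted p = 0.0391). It was at 182 untreated and 116 at 25 ng/ml in WT6 cells and at 122 and 69.4 in WT10 cells. CLU, the secreted inhibitor clusterin, rose in WT6 cells (0.23 ± 0.05, adjusted p = 0.00161) and fell in WT10 cells (-0.09 ± 0.03, adjusted p = 0.0439). In WT6 cells it lay between 62.2 and 130, and in WT10 cells between 622 and 817. CFD, which encodes the protease that cleaves factor B, rose in WT6 cells from 71.2 to 164 (0.26 ± 0.05, limma, adjusted p = 0.00104), as did C4BPB (0.22 ± 0.06, adjusted p = 0.00622) and C8G (0.37 ± 0.13, adjusted p = 0.0302). ITGB2, a subunit of leukocyte complement receptors, rose in WT10 cells (0.13 ± 0.04, adjusted p = 0.0265). The WT10 calls of CLU and CSMD1 held in 4 and 9 of the 15 fits that left out 1 library. With length and GC trends removed, the WT6 slopes of C8G, CFD and CSMD1 were 0.15, 0.09 and -0.01 and did not pass. With each clone fitted alone, C8G, C4BPB and CSMD1 did not pass in WT6 cells (limma, adjusted p = 0.0775, 0.0692 and 0.0849). C8G was low in WT6 cells, at 9.86, 4.12, 5.12, 12.3 and 22.4 over the rising doses. Its call was also lost with doses coded by rank (limma, adjusted p = 0.0562) and without precision weights (adjusted p = 0.0558).

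Other genes of the list had a mean of at least 100 in a clone and did not pass a slope test. CFP, the gene of properdin, lay between 106 and 184 in WT6 cells and did not exceed 21.8 elsewhere. C1QBP lay between 5592 and 8530, and THBD between 1203 and 2734.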

How the data were processed

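The authors sequenced polyA-selected RNA in pairs, aligned the reads to hg19 with STAR, assigned them to genes with HTSeq 0.5.4 (version per the labels) and scaled the counts by DESeq size factors. The deposited table holds this signal, a normalized read count per gene. HTSeq was run at its default settings, which count by strand. The annotation and whether the libraries keep the strand are not given in the sources used here. The 5 tallies of unassigned reads were left out, and reads on no feature made up between 56.5% and 59.6%. Whole reads were recovered for 100% of values by dividing each library by its value of 1 read.

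Groups come from the labels. The members and lists were chosen with earlier results of these data known. Named are all members, genes of a wider complement list with a called slope or a mean of at least 100 in a clone, and the 2 genes nearest to each tested member. Some items are not reported here. Places, lengths and overlaps are from GENCODE release 44 on hg19, matched by symbol for 19556 genes and by older symbol for 1893 (91.8%).

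limma 3.58.1 in R 4.3.3 (vooma weights) was fitted to log2(normalized count + 1) of the 15 libraries together, each clone having its own level and its own slope against log2(dose + 1), with 9 residual degrees of freedom. Tests were two-sided with Benjamini-Hochberg adjustment over 12644 genes. The fit was also run on simulated counts with straight dose lines, which does not measure the spread between cultures. edgeR 4.0.16 and DESeq2 1.42.0 on the whole reads were alternatives, besides other filters, pseudocounts, dose codings and libraries left out. Count intervals are exact Poisson, and ratio intervals exact binomial (Clopper-Pearson), at 95%, computed with scipy 1.17.1 in Python 3.11.15.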

Additional observations from a re-analysis of the deposited data

Results flagged for a closer look

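Among the members, CFB was singled out because its dose slope differed between the wild type clones and MUT3 by a test of the difference itself. The mean wild type slope exceeded that of MUT3 cells by 0.45 ± 0.11 (limma, adjusted p = 0.0121). It was 1 of 7 members called, against 24.6% of all genes. Between WT10 and MUT3 cells, of the same line by the methods, the CFB difference of 0.28 ± 0.11 did not pass (limma, adjusted p = 0.141). Of the wider complement list, C1RL differed between the wild type mean and MUT3 by 0.42 ± 0.10 (adjusted p = 0.00852), 1 of 14 tested. Both calls were lost without the 25 ng/ml library of MUT3, where CFB was at 0.54 (adjusted p = 0.178) and C1RL at 0.39 (adjusted p = 0.242), and in that fit 3 of all genes were called against 3114 with it and 2314 had an unadjusted p under 0.05. Between the wild type clones the slope was higher in WT6 than in WT10 cells for CFD, by 0.36 ± 0.11 (adjusted p = 0.0397), and for CLU, by 0.32 ± 0.06 (adjusted p = 0.011). They were 2 of 14 genes of the list called, against 14.4% of all genes. Without the untreated WT10 library these differences were 0.28 for CFD (adjusted p = 0.244) and 0.30 for CLU (adjusted p = 0.0569), and 59 of all genes were called against 1817 with it. Without the 25 ng/ml library of WT6 they were 0.52 (adjusted p = 0.0676) and 0.19 (adjusted p = 0.214). The CFD call held in 5 of the 15 fits that left out 1 library and the CLU call in 13. The parts of the line of origin and of the single cell behind each clone in these differences cannot be told apart.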

How the results depend on the processing

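With 1 library per condition, culture, library and dose cannot be told apart, and untreated C3, C1S and CFB rest on as few as 10 reads in a library, with CFI and SERPING1 in WT6 at 0 to 2. Without 25 ng/ml the members called were 1 in WT6 (C3 slope -0.01), 0 in WT10 and 0 for the wild type mean against MUT3. The shares of all genes were 37.2%, 0.135% and 0.00794% in that order. With log2 RBM47 in place of dose the members called were 0, 0 and 0, against 0.0158%, 0.704% and 0% of all genes. The difference of wild type mean and MUT3 gave 0 calls with ranked doses (22% of all genes) or without weights (24.2%). With length and GC trends removed it gave 3, against 34.7% of all genes. Removing those trends also gave 2 calls between the slopes of WT10 and MUT3, against 16.5% of all genes. Between those of WT6 and WT10 it gave 1, against 15.6%. A pseudocount of 5 gave 1 for WT10 against MUT3, against 5.55%. The untreated level of WT10 against MUT3 gave 4 calls without a filter, where all 9 members were tested, against 19.8% of all genes. The added calls were SERPING1 and CFI, the latter on at most 1 read per library. This comparison gave 6 with the mean over all doses (48.3% of all genes) and 1 without the 2 libraries highest in ALB (15.3%). The last setting was added after seeing the data and also left 3 slope calls in WT10, against 12.9%. The causes were not tested. Calls of the untreated levels of WT6 against either clone and of MUT3 slopes stayed within 1.5 times under every one of these settings. Leaving out each library in turn gave 1 to 6 slope calls in WT6, 0 to 7 in WT10 and 0 in MUT3. The shares of all genes lay between 36.7% and 62.4%, 0.0475% and 32.8%, and 0% and 0.0316%. The differences gave 0 to 2 for the wild type mean against MUT3, 0 to 1 for WT10 against MUT3 and 0 to 2 for WT6 against WT10. Their shares lay between 0.0237% and 38.9%, 0% and 17.9%, and 0.467% and 29.3%. The slope of C3 in WT6 ranged from -0.01 to 0.42. For single genes, 767 of 866 values kept their side of the threshold under other settings, and 1057 of 1139 with 1 library left out. Called values among these also kept their direction, whereas the direction of uncalled values was not compared. All 24 ratios of 25 to 0 ng/ml stayed within their intervals under TMM scaling. No paired analysis was possible because the labels give no replicate numbers and each condition has 1 library.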
